A study of Mus musculus with 12 samples.

Results

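The genes described here are Vhl, Hif1a, Epas1 and Vegfa, chosen by name as the core of the oxygen-sensing pathway that is central to human kidney cancer. They were measured as DNA copy number in 12 mouse tumours, not as RNA. All probes whose gene name in the scanner output was one of these 4 symbols were taken, which gave 17 probes, in 4 of the 20294 autosomal genes on the array. The probes within 500 kb on each side of a gene served as its local level, because neighbouring DNA is usually gained or lost together. Each tumour was hybridised to 1 Agilent 2-colour array for comparative genomic hybridisation. Tumour DNA carried the red dye and DNA from normal kidney of C57BL/6 mice carried the green dye on every array. A value is the log2 of red over green, centred on the most common value of that array's autosomal probes, so that 0 is the commonest copy number of the tumour, and a negative value means less tumour DNA. With 2 copies in the reference, loss of 1 copy from every cell would read -1. Tumour samples also hold normal cells, and a loss in part of the cells and a loss diluted by normal cells cannot be told apart here.

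The tumours came from C57BL/6 mice, either Mutyh knockouts or wild types. The Mutyh protein is a repair enzyme that cuts out adenine wrongly paired opposite an oxidised guanine. Part of the mice had been given ferric nitrilotriacetate (Fe-NTA), which brings iron to the kidney and damages it through oxidation. It was injected into the abdomen 5 times a week for 12 weeks, first at 3 mg iron per kg for a week and then at 5 mg iron per kg. The treated groups began with 20 males each, and the mice were killed at about 120 weeks. The 4 renal cell carcinomas all came from treated mice, 3 knockouts (KO1080, KO1097 and KO1134) and 1 wild type (WT1179). Of the 8 malignant lymphomas, 2 came from treated knockouts (KO1077 and KO1111) and 1 from an untreated knockout (KO1414). The other lymphomas were 3 from treated wild types (WT1113, WT1114 and WT1121) and 2 from untreated wild types (WT1405 and WT1420). The labels give each tumour its own animal number, and no carcinoma from an untreated mouse was analysed here.

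The protein made by Vhl is the substrate-recognition part of a ubiquitin ligase. When oxygen is present, prolyl hydroxylases mark the alpha subunits of the hypoxia-inducible factors, and the Vhl protein then sends them for destruction. Hif1a and Epas1 encode these alpha subunits (HIF-1α and HIF-2α), which pair with Arnt to switch on genes for glucose use and vessel growth. Vegfa, the main growth factor for blood vessels, is one of their best known targets. In human clear cell kidney cancer VHL is commonly lost, and HIF1A lies on a chromosome arm that is also often lost in that disease.

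All 4 carcinomas had lost DNA at Hif1a, and none had a called loss at Vhl, Epas1 or Vegfa. A call needed a segment of at least 5 probes. A loss confined to Vhl, with 1 probe, or to Vegfa, with 3, could therefore not be called. The 4 probes in Hif1a, which are the items this result rests on, are shown here as read from the scanner output in lower case. Their positions are on chromosome 12 of mouse build mm9, at chr12:75017092-75017150, chr12:75026608-75026667, chr12:75037734-75037793 and chr12:75043443-75043502. No mm9 gene annotation was used here, so exons and introns are not assigned, and the strand of the oligos was not determined.
Hif1a probe 1: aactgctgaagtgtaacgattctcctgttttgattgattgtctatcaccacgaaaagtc
Hif1a probe 2: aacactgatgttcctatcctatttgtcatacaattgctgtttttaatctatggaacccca
Hif1a probe 3: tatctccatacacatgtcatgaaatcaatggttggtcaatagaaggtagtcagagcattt
Hif1a probe 4: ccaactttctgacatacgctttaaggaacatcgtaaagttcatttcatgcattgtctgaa
The probes hold 39.0%, 35.0%, 36.7% and 36.7% G and C bases.

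Some facts of the arrays touch these results. Between 99.856% and 99.938% of spots lay well above background, and the noise of a single probe, estimated from differences between neighbouring probes, had an SD between 0.11 and 0.17 log2 units. The 4 carcinomas were on 1 slide, so tumour type and slide 1 cannot be told apart. Slide 2 held KO1077, KO1111, WT1113 and WT1114, and slide 3 held the 3 untreated lymphomas and WT1121. The deviations of single probes from their surroundings correlated with a median r of 0.69 over the 18 pairs of tumours on the same slide and 0.35 over the 48 pairs on different slides. WT1113 and WT1114 had the most similar genome profiles of the 66 pairs of tumours (r = 0.76 over 2397 bins of 1 Mb). The second of 2 Mutyh probes separated the genotypes as labelled, since it read between -3.21 and -2.39 in the 6 knockouts and between -0.75 and 0.14 in the 6 wild types. No probe carried the name of an antigen receptor gene, so the lymphocyte origin of the lymphomas was not read from named probes.

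Vhl, the ligase subunit, was close to the reference in all 4 carcinomas. Its single probe, at chr6:113579659-113579718 of mm9, read -0.08 for KO1080, 0.029 for KO1097, -0.013 for KO1134 and -0.16 for WT1179. The mean was -0.057 ± 0.084 (SD, n = 4), and each value lay within 2 SE of its local level, with the SE taken from the probe noise. The 98 probes around it gave a tighter reading. The local level was -0.016 for KO1080, 0.012 for KO1097, 0.024 for KO1134 and -0.0072 for WT1179, a mean of 0.0032 ± 0.018 (SD, n = 4). No segment that covers Vhl was called lost in a carcinoma, and in each of them 1 segment ran over the whole of chromosome 6. A loss confined to the single Vhl probe could not have been called, since a call needed at least 5 probes.

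Among the lymphomas the Vhl probe ranged from -0.19 in KO1414 through a median of 0.0095 to 0.47 in WT1405. The local level ranged from -0.04 through a median of 0.035 to 0.49, with the extremes in the same tumours. WT1405 stood apart from the other 7, whose local levels reached 0.11 at most. Its gain was not particular to the neighbourhood of Vhl, since the whole of chromosome 6 averaged 0.52 in that tumour. Ogg1, which encodes the glycosylase that removes oxidised guanine itself and lies within 500 kb of Vhl, read 0.70 in WT1405 at 1 probe. That probe was raised over the lymphomas in general, with a mean of 0.32 ± 0.22 (SD, n = 8). The 23 named genes near Vhl read between 0.35 and 0.70 in WT1405.

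Carcinomas and lymphomas did not differ detectably at Vhl. In a limma model with tumour type, genotype and treatment over 20281 genes, the carcinomas were lower by 0.016 ± 0.11 (SE), with an adjusted p of 0.94. The local level was lower by 0.026 ± 0.088 (SE; adjusted p = 0.87 by limma). With these SEs a small difference was not detectable at either level. Without WT1405 the SE at the gene fell to 0.076. Across all genes 13.6% were called in either direction, and 12.7% were called lower in carcinomas. Of the 23 named genes near Vhl, 1 was called, Creld1, with a carcinoma mean of -0.41 ± 0.12 (SD, n = 4) and a lymphoma mean of 0.090 ± 0.18 (SD, n = 8) at 1 probe (adjusted p = 0.015 by limma).

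Hif1a was lower in every carcinoma than in every lymphoma. Its level, the mean of 4 probes, was -0.45 for KO1080, -0.74 for KO1097, -0.38 for KO1134 and -0.79 for WT1179. These values correspond to 73.2%, 59.8%, 76.7% and 57.9% of the reference signal. The lymphomas ran from 0.036 in WT1121 through a median of 0.13 to 0.35 in KO1414, so the groups did not overlap. The share of all genes without overlap was not counted. The carcinoma mean was -0.59 ± 0.20 (SD, n = 4) and the lymphoma mean 0.18 ± 0.13 (SD, n = 8). The difference in the limma model was -0.78 ± 0.11 (SE; adjusted p = 0.00031), against the 12.7% of all genes that were called lower. The adjusted p stayed between 6.9e-05 and 0.0041 over the 26 alternative settings.

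The surroundings of Hif1a carried the same loss. The local level, from 79 probes, was -0.41 for KO1080, -0.67 for KO1097, -0.30 for KO1134 and -0.71 for WT1179. In the lymphomas it ran from -0.02 through a median of 0.051 to 0.15. The difference between the tumour types was -0.62 ± 0.076 (SE; adjusted p = 0.00027 by limma), where 10.4% of genes were called on the local level, all of them lower in carcinomas. Where 12.7% of all genes were called lower in carcinomas at the gene level, all 8 named genes within 500 kb of Hif1a were. They include Prkch, which encodes a protein kinase C and averaged -0.55 ± 0.21 (SD, n = 4) over 19 probes. Syt16, a member of the synaptotagmin family, averaged -0.51 ± 0.21 (SD, n = 4) over 29 probes.

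The lost stretch was far longer than the gene. In KO1080, KO1097 and WT1179 all of chromosome 12 was lowered, with chromosome means of -0.42, -0.62 and -0.71. In KO1097 the first 13.9 Mb of probes were at -0.30 and the rest, with Hif1a, at -0.66 or -0.65. KO1134 differed, as the loss there covered chr12:3102541-88912636 at -0.30 and ended 14 Mb beyond Hif1a. The following segment of KO1134 was at -0.0032. At a calling threshold of 0.4, or with centring on the median, 3 of the 4 carcinomas had a call at Hif1a, all except KO1134. No lymphoma had a called segment at Hif1a at the threshold of 0.25. In KO1414 the segment over Hif1a was at 0.16 and was called gained at a threshold of 0.15. On the same chromosome, 7 of the 8 lymphomas and none of the carcinomas had a short loss that began 39.5 Mb beyond Hif1a, between 114.506 and 114.554 Mb, and reached -0.28 to -1.05. That stretch lies toward the far end of the chromosome, as does the immunoglobulin heavy chain locus, which was not placed here by an annotation. Beyond the stretch, a segment without a call ran on to 121.253 Mb in each of these 7 lymphomas. The stretch was looked at after its values were seen, and WT1405 was the lymphoma without a call.

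**Figure D1:**
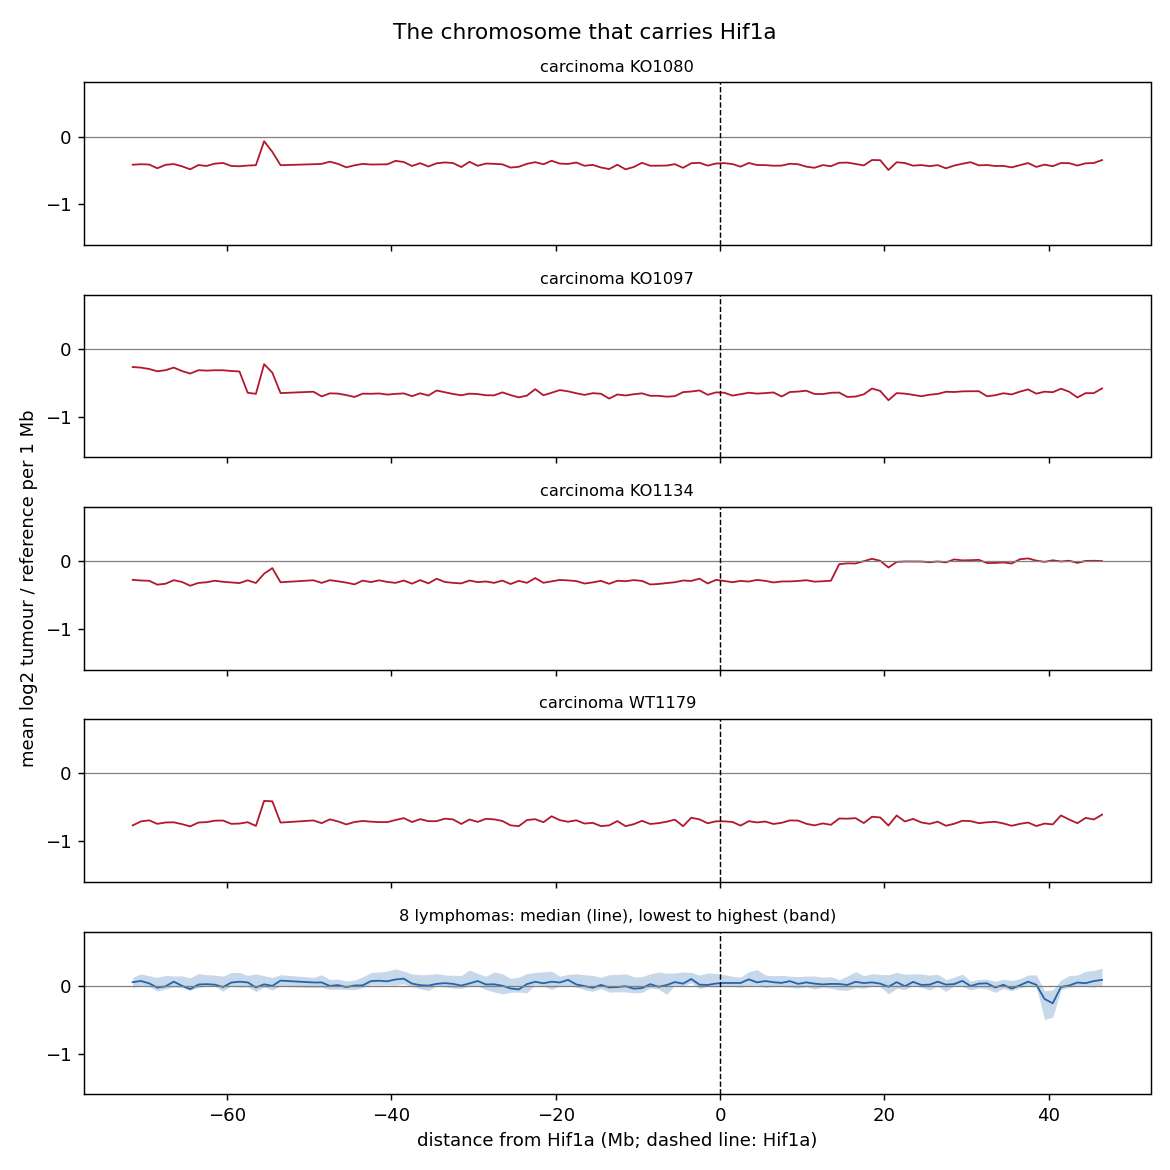
Mean log2 of tumour over reference DNA per 1 Mb along the chromosome of Hif1a, against the distance from the gene in Mb (dashed line at Hif1a), for each carcinoma and for the 8 lymphomas (line, median; band, lowest to highest). The loss spans the chromosome in KO1080, KO1097 and WT1179 and ends 14 Mb beyond the gene in KO1134, and the median of the lymphomas stays near 0 apart from the dip 39.5 Mb beyond it. The upper edge of the band is mostly KO1414, whose segment over Hif1a is at 0.16.

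Gene and local level agreed at Hif1a in the carcinomas and less closely in some lymphomas. In the carcinomas the gene read 0.039 to 0.085 below its surroundings, within 2 SE from the probe noise in each of the 4. In 4 lymphomas, KO1414, WT1113, WT1114 and WT1420, the gene lay more than 2 SE above its surroundings, by 0.20, 0.26, 0.24 and 0.16. The excess in WT1113 and WT1114 came from probes 1 and 3 of those printed above. Probe 1 read 0.45 in WT1113 and 0.50 in WT1114, and probe 3 read 0.64 and 0.58. Probes 2 and 4 read 0.08 and 0.08 in WT1113 and 0.11 and 0.19 in WT1114, close to the local levels of 0.049 and 0.11. Of all autosomal probes, 2.78% lay at least 0.3 above their surroundings in both of these tumours. The difference in gene minus local level between carcinomas and lymphomas was -0.16 ± 0.056 (SE) and did not pass the test (adjusted p = 0.071 by limma), where 14.9% of genes did. On this measure the carcinomas ran from -0.085 to -0.039 and the lymphomas from 0.0042 to 0.26, so the groups did not overlap. The share of all genes without overlap on it was not counted.

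Epas1, the other alpha subunit, showed no loss in any carcinoma. The mean of its 9 probes, which span chr17:87160886-87232665 of mm9, was -0.0026 for KO1080, 0.023 for KO1097, 0.019 for KO1134 and -0.038 for WT1179. The 95 surrounding probes gave -0.0099, -0.012, -0.0014 and 0.018 in the same order. All 8 values lay within 0.04 of the reference. The lymphomas ran from -0.087 in KO1077 through a median of 0.016 to 0.26 in WT1405, and the groups overlapped. Gene and local level lay within 2 SE of each other in all 4 carcinomas, whereas the gene was more than 2 SE below its surroundings in KO1077, by 0.10, and WT1121, by 0.091. WT1405 again was highest, with a local level of 0.28, and its segment there was called gained at 0.28.

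Between tumour types, Epas1 differed by 0.024 ± 0.062 (SE; adjusted p = 0.83 by limma) at the gene and by -0.056 ± 0.054 (SE; adjusted p = 0.52 by limma) at the local level. Of the 10 named genes near Epas1, 2 were called, each at 1 probe, where 13.6% of all genes were called in either direction. Cript averaged 0.011 ± 0.032 (SD, n = 4) in the carcinomas and 0.22 ± 0.23 (SD, n = 8) in the lymphomas, and 1700090G07Rik averaged -0.20 ± 0.046 and 0.037 ± 0.27. Their adjusted p-values were both just under the threshold of 0.05, at 0.047 and 0.048 in limma. The gene minus local level was higher in the carcinomas by 0.080 ± 0.023 (SE), with an adjusted p of 0.041 in limma. The carcinoma mean of that quantity was 0.0016 ± 0.040 (SD, n = 4) and the lymphoma mean -0.052 ± 0.058 (SD, n = 8), and the groups overlapped. The call was lost in 14 of 28 alternatives, with an adjusted p of 0.28 when slide was a random block, and the share of genes called then fell from the 14.9% given above to 139 of 20280 genes. Within lymphomas, the 4 of slide 2 read -0.064 to -0.11 on this measure and the 4 of slide 3 read -0.091 to 0.039.

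Vegfa, the ligand, lies on the same chromosome as Epas1, and its surroundings were also close to the reference in the carcinomas. The local level from 86 probes was -0.041 for KO1080, 0.024 for KO1097, 0.029 for KO1134 and -0.036 for WT1179. The mean of the 3 Vegfa probes was lower than that in each carcinoma, at -0.12, -0.11, -0.081 and -0.24 in the same order. The gap of 0.20 in WT1179 was more than 2 SE, and those of the other 3 carcinomas were within 2 SE. All lymphomas read higher than all carcinomas at the gene, from -0.035 in WT1114 through a median of 0.051 to 0.37 in WT1405. This difference did not pass the test, at -0.14 ± 0.063 (SE; adjusted p = 0.19 by limma). The median difference over all genes tested was -0.086 in the same model. Taken from plain group means, that median was -0.088 with centring on the mode and -0.030 with centring on the median. Whether the Vegfa gap shares this offset was not tested. How many of all genes separated the tumour types without overlap was not counted. At the local level the groups overlapped and the difference was -0.046 ± 0.051 (SE; adjusted p = 0.58 by limma). Of the 30 named genes near Vegfa, 2 were called, where 13.6% of all genes were called in either direction. They were AB037184 and Nfkbie, which encodes an inhibitor of NF-kappa B. Nfkbie averaged -0.067 ± 0.049 (SD, n = 4) in the carcinomas and 0.15 ± 0.12 (SD, n = 8) in the lymphomas (adjusted p = 0.048 by limma), and AB037184 averaged 0.036 ± 0.069 and 0.17 ± 0.13 (adjusted p = 0.041 by limma), each at 1 probe.

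A single probe set the low Vegfa readings of the carcinomas. Probe 1, at chr17:46155349-46155408, read -0.46 for KO1080, -0.51 for KO1097, -0.38 for KO1134 and -0.82 for WT1179. Probe 2, at chr17:46161123-46161182, read 0.079 to 0.15 in the same tumours. Probe 3, at chr17:46169018-46169067, read 0.014 to 0.042. The 3 probes disagree by more than 0.3, whereas the 2 upper ones match the local level of each carcinoma within about 0.13. Of all autosomal probes, 279 of 161102 (0.173%) lay at least 0.3 below their surroundings in all 4 carcinomas, and this is one of them. Probe 1 has 31.7% G and C bases, and the 2684 probes within 1 percentage point of that had medians between -0.07 and -0.025 in the carcinomas. With the median over probes in place of the mean, the carcinomas averaged 0.025 at Vegfa, and the difference between tumour types turned to 0.037 (adjusted p = 0.72 by limma). No segment at Vegfa was called lost in a carcinoma. A call needed at least 5 probes, so a loss confined to the 3 Vegfa probes could not have been called.

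The same probe was high in 3 lymphomas, those from untreated mice. It read 0.56 in WT1420, 0.52 in WT1405 and 0.27 in KO1414. In the 5 treated lymphomas it ran from -0.089 through -0.06 to 0.13. In WT1420 the other probes read 0.17 and 0.14 and the local level was -0.0032, so gene and surroundings disagreed there by 0.30, more than 2 SE. WT1405 had a called gain at 0.26 around Vegfa, and its chromosome 17 averaged 0.27. The gain calls at Epas1 and Vegfa in WT1405 were lost at a threshold of 0.4 and with centring on the median, and the one at Vhl was kept under both.

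**Figure D2:**
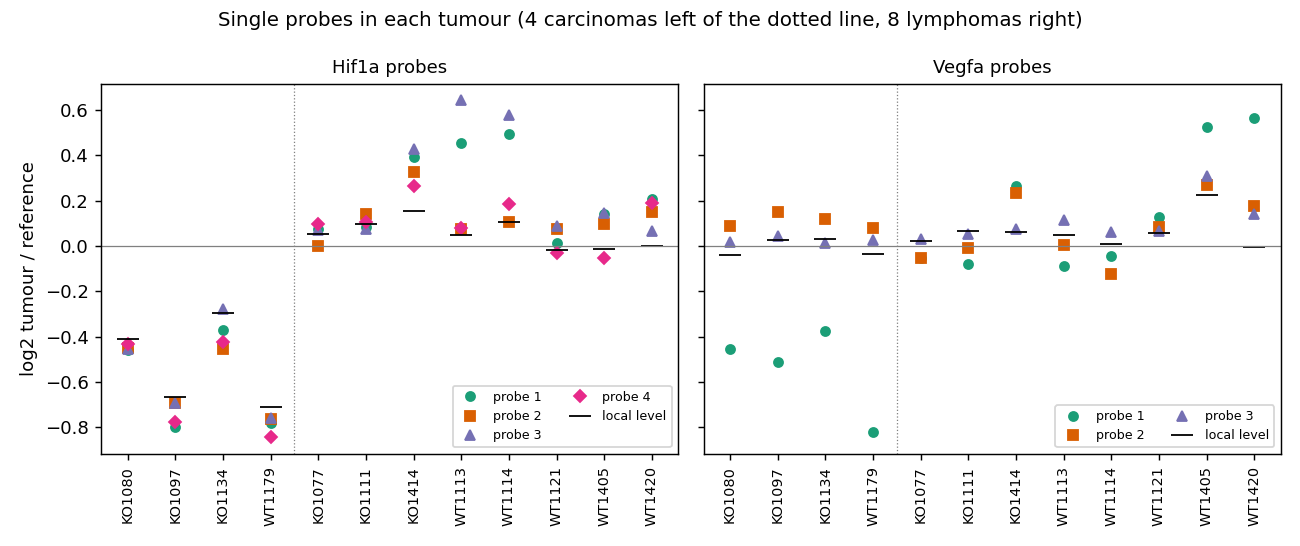
Log2 of tumour over reference DNA at each probe of Hif1a and Vegfa (symbols) and the local level (black dashes) in every tumour. In the carcinomas the 4 Hif1a probes lie together near the local level, whereas Vegfa probe 1 lies at -0.82 to -0.38 and the other Vegfa probes near 0.

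The order of the genes differed between the tumour types. In the carcinomas Hif1a was lowest at -0.59 ± 0.20, followed by Vegfa at -0.14 ± 0.071, Vhl at -0.057 ± 0.084 and Epas1 at 0.00029 ± 0.028 (SD, n = 4 for each). The place of Vegfa rests on its probe 1, and with the median over probes Vegfa averaged 0.025 ± 0.012, above Vhl and within the spread of Epas1 at 0.0095 ± 0.037. Hif1a lay below the others by more than these spreads, and Vhl did not differ from Vegfa or Epas1 beyond them. In the lymphomas the order was Epas1 at 0.035 ± 0.11, Vhl at 0.053 ± 0.20, Vegfa at 0.11 ± 0.16 and Hif1a at 0.18 ± 0.13 (SD, n = 8 for each), and no neighbours in that order differed beyond their spread. WT1405 was the highest lymphoma at Vhl, Epas1 and Vegfa and not at Hif1a, where its local level was -0.014.

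**Figure D3:**
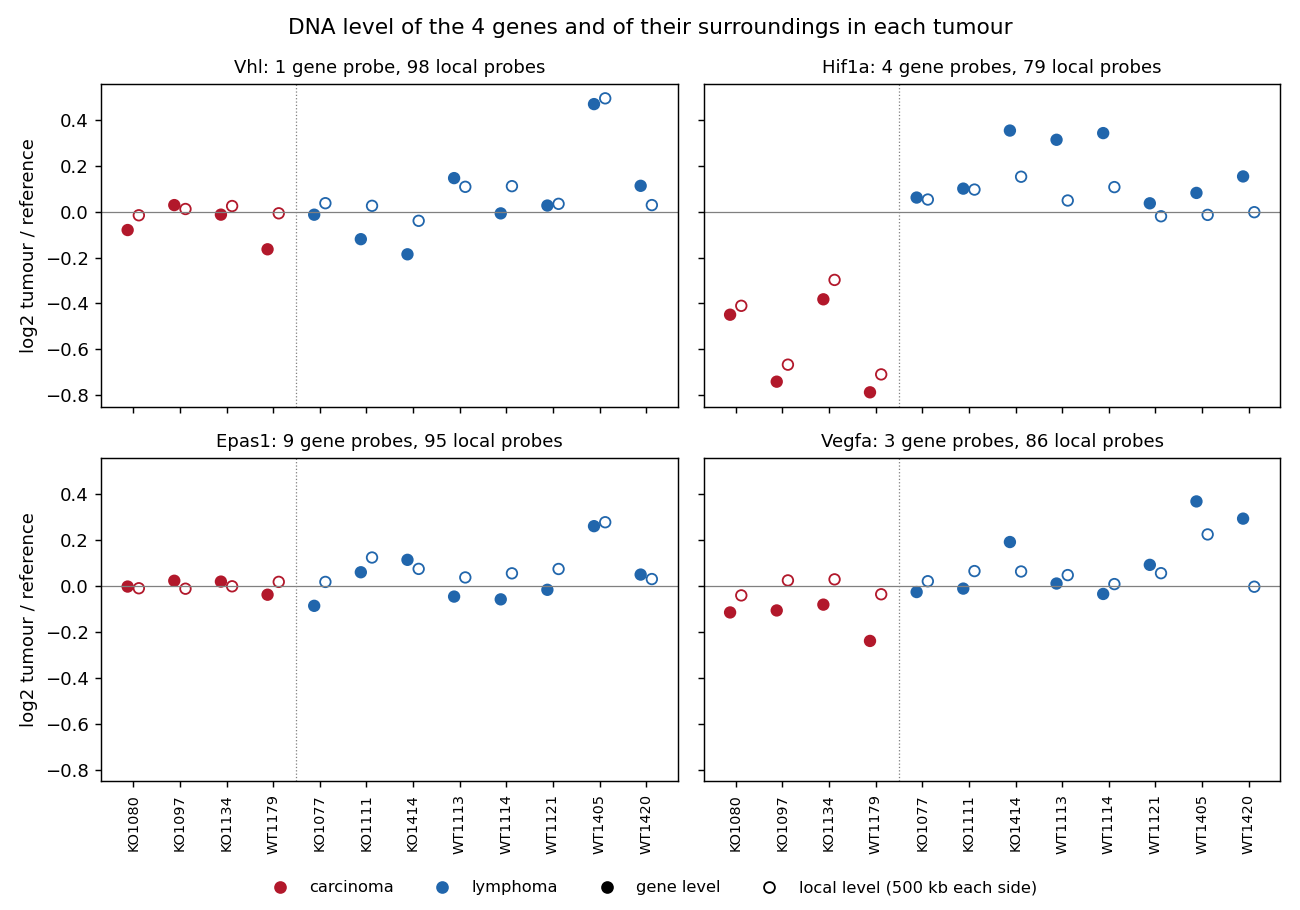
Log2 of tumour over reference DNA for each gene (filled) and for the probes within 500 kb on each side (open) in the 4 carcinomas (red) and 8 lymphomas (blue). The carcinomas lie between -0.79 and -0.38 at Hif1a and near 0 in the surroundings of the other genes, and WT1405 is the highest lymphoma at Vhl, Epas1 and Vegfa.

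Genotype was compared between the 6 knockouts and the 6 wild types in the same model. None of the 4 genes was called, and 0.0641% of all genes were. The differences, knockouts minus wild types, were -0.14 ± 0.092 (SE) for Vhl, 0.067 ± 0.095 for Hif1a, 0.017 ± 0.054 for Epas1 and -0.015 ± 0.055 for Vegfa. Their adjusted p-values lay between 0.86 and 0.97 in limma. Among the carcinomas the 3 knockouts averaged -0.52 ± 0.19 (SD) at Hif1a and the 1 wild type read -0.79, so the loss was present in both genotypes. Within slides the Hif1a difference was 0.26 on slide 1, -0.25 on slide 2 and 0.26 on slide 3.

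All carcinomas were treated, so the comparison by treatment rests on the 5 treated and 3 untreated lymphomas. No gene of the whole array was called (0% of 20281 genes, with 2126 at an unadjusted p below 0.05 in limma). Vegfa was lower in treated tumours by 0.28 ± 0.065 (SE), with an adjusted p of 0.21 in limma. Epas1 was lower by 0.17 ± 0.064 (SE; adjusted p = 0.38 by limma). The 3 untreated lymphomas averaged 0.28 ± 0.089 (SD) at Vegfa and the 5 treated lymphomas 0.0060 ± 0.051 (SD), with no overlap. The share of all genes without overlap was not counted. At the local level the groups did overlap. It was -0.0032 in WT1420, 0.063 in KO1414 and 0.22 in WT1405, and ran from 0.0082 to 0.065 in the treated lymphomas. WT1405 had the called gain around Vegfa, and in WT1420 probe 1 read 0.56 against 0.17 and 0.14 at the other probes. All untreated tumours were on slide 3. The 1 treated tumour on that slide, WT1121, read 0.092, which is 0.19 below the untreated mean. Leaving out WT1121 left no treated tumour on slide 3, so that fit cannot tell treatment from slide among the lymphomas. In it the Vegfa difference passed the test (adjusted p = 0.040 by limma), and the number of genes called rose to 467. With slide as a fixed block the difference was -0.19 ± 0.10 (SE; adjusted p = 1.0 by limma).

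The wider pathway was read from a list of 50 genes, of which 41 had autosomal probes. In the comparison of carcinomas with lymphomas 5 of the 41 were called, all lower in carcinomas, and the median difference of the list was -0.036 against -0.086 over all genes tested. Read against the 12.7% of all genes called lower, this count is near the background. By role, 0 of 5 ligase genes, 1 of 4 oxygen sensors, 1 of 7 factor subunits and partners, 1 of 3 ligands, 0 of 5 receptors and 2 of 17 targets were called. All 5 called genes lie on chromosomes 12 or 4.

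On chromosome 12, Egln3 and Pgf were lowered together with Hif1a. Egln3 encodes one of the prolyl hydroxylases that mark the alpha subunits for the Vhl protein. It ranged from -0.70 to -0.40 in the carcinomas and from -0.19 to 0.21 in the lymphomas, with a difference of -0.67 ± 0.089 (SE; adjusted p = 0.00027 by limma). Pgf, a placental growth factor of the VEGF family, ranged from -0.65 to -0.14 in the carcinomas at 1 probe and from -0.0019 to 0.43 in the lymphomas. Its difference was -0.54 ± 0.10 (SE; adjusted p = 0.0023 by limma). An alpha subunit, a hydroxylase that acts on it and a ligand of the VEGF receptors were lowered on 1 chromosome.

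On chromosome 4 the called genes of the list were targets of the factors, and their surroundings were lowered too. The carcinoma local level averaged -0.55 ± 0.21 (SD, n = 4) around Slc2a1 and -0.50 ± 0.22 (SD, n = 4) around Eno1. Slc2a1, which encodes the glucose transporter GLUT1, ranged from -0.83 to -0.48 in the carcinomas and from -0.18 to 0.11 in the lymphomas. It differed by -0.65 ± 0.084 (SE; adjusted p = 0.00026 by limma). Eno1, the glycolytic enzyme enolase, ranged from -0.99 to -0.34 in the carcinomas at 1 probe. That probe was low in the lymphomas too, with a mean of -0.20 ± 0.12 (SD, n = 8) and a lowest value of -0.39, so the groups overlapped. The difference at Eno1 was -0.42 ± 0.11 (SE; adjusted p = 0.022 by limma). Mutyh lies on the same chromosome. Listed genes that share a chromosome with Vhl, Epas1 or Vegfa stayed near the reference in carcinomas. Tceb2, which encodes Elongin B of the Vhl ligase, averaged 0.071 ± 0.072 (SD, n = 4). Hk2, a hexokinase, averaged 0.030 ± 0.036 (SD, n = 4), and Tgfa, a growth factor of the EGF family, averaged -0.00067 ± 0.075 (SD, n = 4). For the comparisons by genotype and by treatment none of the 41 genes was called.

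**Figure D4:**
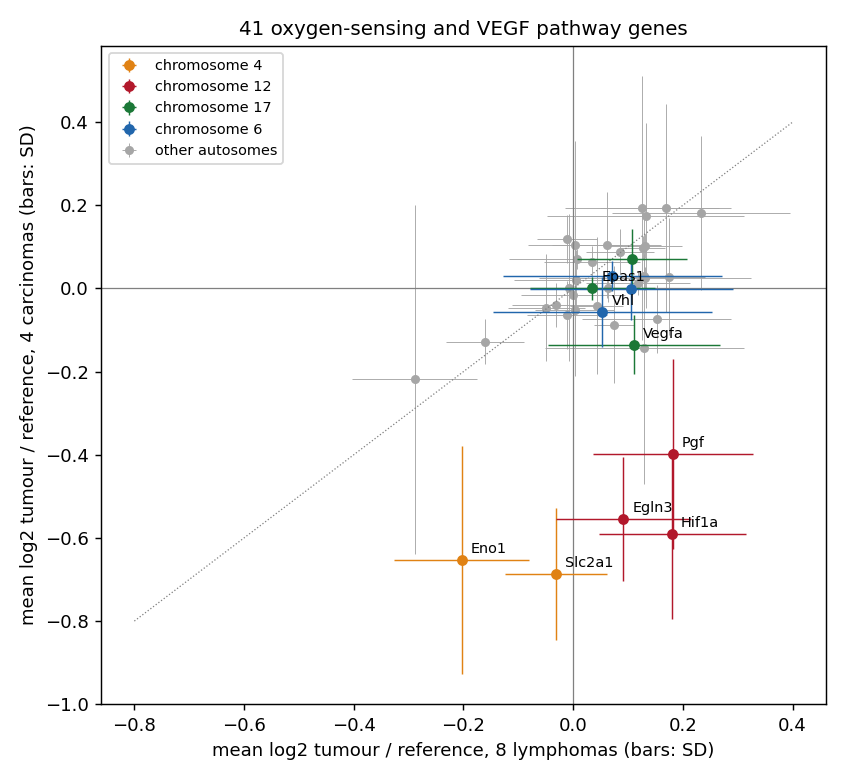
Mean log2 of tumour over reference DNA in the 8 lymphomas (horizontal axis) and the 4 carcinomas (vertical axis) for the 41 pathway genes, with SD bars and colours by chromosome; the dotted line marks equal means. Hif1a, Egln3 and Pgf on chromosome 12 and Slc2a1 and Eno1 on chromosome 4 lie apart, at carcinoma means between -0.69 and -0.40.

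The genes on other chromosomes with the most similar pattern over the 12 tumours were taken by Pearson correlation of the gene level, over genes with at least 3 probes. These are descriptions, and the tumours share slides and whole-chromosome changes. For Hif1a they were Tox, a regulator of T cell development (r = 0.98), Eif2c4, an Argonaute protein gene (r = 0.97), and Sfrs18 (r = 0.97), all on chromosome 4. Tox averaged -0.52 ± 0.21 (SD, n = 4) in the carcinomas and 0.043 ± 0.038 (SD, n = 8) in the lymphomas. For Vhl they were AK084265, Coq2 and Kcng2 (r = 0.93 for each), and for Epas1 Slco1c1, E330009J07Rik (both r = 0.89) and Tmx3 (r = 0.87). Slco1c1, an anion transporter gene on chromosome 6, read 0.54 in WT1405 against a carcinoma mean of -0.011. For Vegfa they were Kcnh2 (r = 0.91), Gata6 (r = 0.91) and Timd4 (r = 0.90). Gata6, a transcription factor gene, averaged -0.29 ± 0.029 (SD, n = 4) in the carcinomas and 0.035 ± 0.12 (SD, n = 8) in the lymphomas.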

How the data were processed

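The intensity values deposited by the authors are red and green processed signals from Agilent Feature Extraction 10.7.1.1, per the file headers background-subtracted, detrended and normalized between dyes by the linear method, with probe positions in mouse build mm9. Agilent's log10 ratio column and the authors' series-wide table of log2 ratios served as alternatives. That table matched the log2 of red over green without centring (r at least 0.99994 on each array). Of 174305 spots that were not controls, 116 to 298 per array that the software marked as outliers were dropped, and replicate spots were averaged, giving 170305 probes. The log2 ratio was centred on each array's mode (kernel bandwidth 0.05, autosomes). Gene levels are means over probes, and 1580 probes whose gene name occurs on several chromosomes were left out.

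Gene level, local level and their difference were fitted for all autosomal genes with limma 3.58.1 (lmFit, eBayes; tumour type, genotype and treatment), with Benjamini-Hochberg adjustment and a threshold of 0.05. In simulated data for the gene level, 52% of genes changed by 0.4 and 94% of genes changed by 0.8 between tumour types were recovered. These data had independent normal noise, no effect of slide and only a small part of the genes changed. The recovery on the real arrays, which share slides, can therefore differ. Segments came from penalised least squares (penalty 10 times the log of the probe number times the noise variance) and were called at 0.25 over at least 5 probes. Simulated losses of 100 probes at 0.3 were found in 100% of 60 cases, and recovery of losses on the real arrays was not tested. The number of arrays limits the precision. The p-values set each difference against the spread between these tumours, which the main model takes as independent although they share slides.

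Alternatives covered the centring, the background correction, the source of the ratio, probe filters, the window, the model and tumours left out. The members and gene lists were chosen with earlier results of these data known. By rule, the 4 genes, the called pathway genes and those on the members' chromosomes, and the 3 most similar genes per member are named. Neighbouring genes were named after their values were seen.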

Additional observations from a re-analysis of the deposited data

Results flagged for a closer look

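WT1405 stood apart from the other lymphomas in the surroundings of 3 of the 4 genes. Its local level was 0.49 at Vhl, where the others ran from -0.040 to 0.11. At Epas1 it was 0.28, with the others between 0.018 and 0.12. At Vegfa it was 0.22, with the others between -0.0032 and 0.065. In each case the gap to the next tumour was larger than Dixon's 95% critical value for 8 samples. Of 24 groups of values looked at, these 3 stood out, and chance alone would give about 1 in 20. Epas1 and Vegfa share a chromosome, so their readings in WT1405 are not independent.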

How the results depend on the processing

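The lower level of Hif1a in carcinomas kept its direction and its call under every alternative run, with differences between -0.92 and -0.69 at the gene over 26 alternatives and between -0.68 and -0.56 at the local level over 28. Of 852 alternative values for 49 results, 772 kept their direction and side of the threshold. The 35 reversals all concern differences that passed no test, mostly near 0, and the cause was not tested. Differences below are carcinomas minus lymphomas unless stated otherwise.

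With median centring, Vhl differed by 0.038 at the gene and 0.028 at the local level, Vegfa by 0.0079 at the local level, and Vegfa by 0.0026 between knockouts and wild types. Carcinoma means moved to 0.037 for the Vhl local level, 0.034 for Epas1 and 0.032 for its local level, and 0 lymphomas kept a gain call at Epas1 or Vegfa. With the median over probes, Vegfa differed by 0.037 at the gene and 0.048 for gene minus local level, with a carcinoma mean of 0.025. The gene minus local difference of Vhl was then -0.011 and that of Epas1 0.055. With normexp background correction, Vhl differed by 0.0045 at the local level and -0.061 for gene minus local level, Hif1a by -0.28 for gene minus local level (then called) and Epas1 by 0.053. With tumour type alone in the model, Epas1 differed by -0.034 at the gene, and gene minus local differences were -0.014 for Vhl, -0.20 for Hif1a (called) and 0.053 for Epas1. With treated tumours alone, Vhl was at -0.0063 and Epas1 at 0.080 for gene minus local level, and Vegfa differed by 0.028 between genotypes. Epas1 gene minus local level was 0.081 with WT1113 and WT1114 averaged and 0.077 with slide as a random block. A window of 1 Mb gave -0.0081 for Vhl. With slide as a fixed block, an alternative chosen after seeing the data, Vegfa differed by 0.0016 between genotypes.

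The number of genes called fell to 1570, 1311 and 1776 for gene, local and gene minus local level over genes with at least 2 probes, where fewer genes were tested. The gene minus local count was 1508 with normexp, 1206 with tumour type alone and 139 with slide as a random block, and 1 gene was called for treatment with slide as a fixed block. At a threshold of 0.15, 1 lymphoma (KO1414) had a gain call at Hif1a. At 0.4, 0 had one at Epas1 or Vegfa, and a penalty of 5 left 0 at Vegfa.

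Leaving out 1 tumour at a time gave ranges of -0.057 to 0.12 for Vhl, -0.0042 to 0.058 for Epas1 at the gene and -0.050 to 0.029 for the Vhl local level. For gene minus local level they were -0.018 to 0.092 for Vhl, -0.19 to -0.13 for Hif1a and 0.065 to 0.099 for Epas1, with 1014 to 5525 genes called. Between genotypes they were -0.012 to 0.12 for Hif1a, -0.011 to 0.042 for Epas1 and -0.077 to 0.028 for Vegfa. For treatment they were -0.28 to 0.035 for Vhl, -0.086 to 0.050 for Hif1a and -0.34 to -0.24 for Vegfa, with 0 to 467 genes called, the most without WT1121. The fit without WT1121 cannot tell treatment from slide among the lymphomas. The gene level of Vhl rests on 1 probe.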
